A study of Mus musculus with 24 samples.

Results

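The thermogenic genes of brown and beige adipocytes were followed here through the retroperitoneal white adipose tissue of 24 adult mice, labelled C57BL/6J and named C57BL/6JRJ in the study's methods. The 10 members were taken by gene symbol from the 8 deposited comparison tables, namely Ucp1, Cidea, Cox8b, Cox7a1, Elovl3, Dio2, Otop1, Kcnk3, Ppargc1a and Prdm16. All 10 were found among the 56895 entries with a usable name, and all 10 passed the filter on low values over the 24 libraries together, as did 18399 entries in all. The mothers had received AIN-93G diet with vitamin D3 at 1.0 IU/g (CTRL) or at 0.0 IU/g (VDD) for 8 weeks before mating and during gestation, and the control diet after birth. Their offspring received a low-fat diet (LF, AIN-93M) or a high-fat diet (HF, 45% of energy from fat) from 6 weeks of age for 8 weeks and were fasted overnight before sampling. Male and female offspring were sequenced, which gave 8 groups of 3 mice, and each library is named below by its group and mouse number. The sources used here do not say which mice shared a litter. The p-values therefore measure the spread between mice, some of which may share a mother.

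Brown adipocytes, and the beige adipocytes that appear within white depots, burn fat to make heat. Noradrenaline from sympathetic nerves acts on beta-adrenergic receptors, lipolysis releases fatty acids, and uncoupling protein 1 lets protons return through the inner mitochondrial membrane without making ATP. Retroperitoneal fat is a white depot in which such cells can appear in scattered patches, and their transcripts fall at thermoneutrality and rise in the cold. In a piece of whole tissue, fewer thermogenic adipocytes and less transcript per cell cannot be told apart.

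Total reads ran from 13346779 to 18484346 per library, so depth differed little between mice. The label of adipose tissue was borne out by adipocyte markers, with Adipoq between 44740.0 and 109716 and Plin1 between 9362 and 30585 normalized reads in all 24 libraries. These markers were not used to tell white from thermogenic adipocytes. Other tissues were also present. The summed level of 16 skeletal muscle markers was between 55262 and 1423684 normalized reads in 8 libraries and between 647 and 26634 in the other 16. All 16 passed the filter, although Myh1, Myh2, Myh4 and Pvalb were at 0 in some libraries. The group ranges of the sum were 873 to 89097 in CTRL LF males, 793 to 1423684 in VDD LF males, 2029 to 4537 in CTRL HF males, 2339.7 to 461168 in VDD HF males, 647 to 70809 in CTRL LF females, 782 to 214577 in VDD LF females, 1152 to 26634 in CTRL HF females and 1085 to 55262 in VDD HF females. The sum of 11 adrenal markers was between 10405 and 33114 in CTRL HF females 2290 and 2292 and VDD HF female 2121, and between 398 and 2173 in the other 21. There it was carried by Cyp11a1 and Hsd3b1, steroidogenic enzymes that the ovary also makes, while the adrenal enzymes Cyp11b2 and Cyp11b1 were at 0 and at no more than 11.9 normalized reads in every library, and 5 of the 11 markers passed the filter. Kidney markers summed to 9719 in VDD LF female 2303 and to no more than 775 elsewhere. The library names of 6 mice contain the word renal, none of them HF females.

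The sequences just upstream of 3 members are shown, because the genes they belong to carry the patterns described below. Ucp1 had the widest spread between mice. Cox8b, with Cox7a1, differed between maternal groups in sons and in HF daughters, but overlapped between those groups in LF daughters. Dio2 differed in level between the sexes. In the GENCODE M21 annotation of GRCm38, Ucp1 lies on chromosome 8 at 83290352 to 83298452 on the plus strand, Cox8b on chromosome 7 at 140898945 to 140900446 and Dio2 on chromosome 12 at 90724552 to 90738438, both on the minus strand. Each run is the 250 bases before the RefSeq transcription start on GRCm38.p6, written 5′ to 3′ on the gene's strand. The regions are chr8:83290098-83290347 on the plus strand for Ucp1, chr7:140900447-140900696 on the minus strand for Cox8b and chr12:90739039-90739288 on the minus strand for Dio2. The windows of Ucp1 and Cox8b adjoin those gene bodies, whereas the RefSeq start of Dio2 lies upstream of the GENCODE one. Capitals mark the single motif that was found.
Ucp1 promoter: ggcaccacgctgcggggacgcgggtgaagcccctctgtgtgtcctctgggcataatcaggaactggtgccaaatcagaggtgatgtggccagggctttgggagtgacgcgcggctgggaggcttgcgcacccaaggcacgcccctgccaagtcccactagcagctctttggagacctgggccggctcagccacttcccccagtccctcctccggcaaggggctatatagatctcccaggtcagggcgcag
Cox8b promoter: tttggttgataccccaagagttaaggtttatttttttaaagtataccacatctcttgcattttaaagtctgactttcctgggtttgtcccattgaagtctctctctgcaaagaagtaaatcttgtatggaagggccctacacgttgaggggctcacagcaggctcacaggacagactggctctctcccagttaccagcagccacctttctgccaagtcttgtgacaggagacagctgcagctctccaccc
Dio2 promoter: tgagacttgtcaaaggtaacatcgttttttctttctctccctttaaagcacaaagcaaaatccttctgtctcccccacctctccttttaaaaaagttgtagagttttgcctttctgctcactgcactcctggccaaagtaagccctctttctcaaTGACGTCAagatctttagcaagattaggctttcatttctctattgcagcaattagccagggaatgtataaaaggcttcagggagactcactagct
RefSeq promoters were matched for 7 of the 10 members (Ucp1, Cox8b, Cox7a1, Dio2, Otop1, Ppargc1a and Prdm16). Both strands of their 250 bases were searched for 5 motifs. The cAMP response element TGACGTCA, which reads the same on both strands, lay from -95 to -88 of the Dio2 start and in no other of the 7, and 1.55% of all 32851 promoters hold it. The estrogen-related receptor motif TCAAGGTCA (in 0.387% of promoters), the direct repeat of PPAR and RXR (DR1, 0.033%), the palindrome of EBF (0.779%) and the direct repeat of VDR and RXR (DR3, 0.006%), each searched as 1 fixed set of letters, were not in any of the 7 windows.

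The members differed widely in abundance. On a scale corrected for exon length and library size (RPKM), the medians over 24 libraries were 122 for Cox8b, 42.2 for Cidea, 27.5 for Cox7a1, 17.1 for Kcnk3 and 9.71 for Ucp1. Cox8b and Cox7a1 encode the cytochrome c oxidase subunits used in heart, muscle and brown fat in place of their widespread counterparts, Cidea encodes a lipid droplet protein, and Kcnk3 encodes a potassium channel of the plasma membrane. The other 5 had low medians, 1.29 for Ppargc1a, 0.941 for Otop1, 0.682 for Prdm16, 0.619 for Elovl3 and 0.191 for Dio2. Ppargc1a and Prdm16 encode regulators of the brown programme, Otop1 a proton channel, Elovl3 a fatty acid elongase and Dio2 the deiodinase that makes active thyroid hormone within the cell. Elovl3 reached 10 normalized reads in 13 of 24 libraries, Dio2 in 15, Ucp1 in 18 and Otop1 in 22, and the other 6 members did so in all 24.

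The spread between mice of the same group was the widest for Ucp1. Its standard deviation within groups, pooled over the 8 groups, was 3.54 on the log2 scale of normalized reads plus 1, which was larger than that of 99.7% of the 18399 genes tested, for which the median was 0.377. Elovl3 (2.41), Otop1 (1.86), Cidea (1.85) and Dio2 (1.51) also varied more within groups than at least 96.6% of all genes. The spread was smaller for Cox7a1 (0.903), Cox8b (0.824), Ppargc1a (0.657), Kcnk3 (0.511) and Prdm16 (0.482). Group comparisons of Ucp1 were accordingly the least precise among the 10 genes.

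Ucp1 levels ran over more than 4 orders of magnitude across the 24 mice, from 0.829 to 25479 normalized reads. In VDD HF females the 3 mice had 899.6, 4578 and 25479 normalized reads. In CTRL HF females they had 0.829, 8.62 and 215, all below every VDD HF female. CTRL LF females had 135, 2909.7 and 5278, and VDD LF females had 3.76, 906 and 1023. Among males, CTRL LF mice had 15.5, 43.7 and 241, CTRL HF mice 9.06, 55.4 and 106, VDD LF mice 2.34, 545 and 1416, and VDD HF mice 0.935, 683 and 982. In VDD LF males, VDD HF males and VDD LF females alike, a single mouse (2310, 2298 and 2303) stood far below the rest of its group. Mice 2310 and 2303 had the highest sums of skeletal muscle markers in their groups. In VDD HF males, mouse 2307 had a higher sum (461168) than 2298 (308878) and had 683 Ucp1 reads. Mouse 2303 also had the highest sum of kidney markers (9719). The CTRL HF female at 0.829 was mouse 2292, from a group with muscle marker sums of 1152 to 26634. It was among the 3 libraries high in adrenal markers (sums of 10405 to 33114). The others of these, CTRL HF female 2290 and VDD HF female 2121, had 215 and 25479 Ucp1 reads, the highest of their groups. The cause of the low levels was not tested. Ordered by mean log2 level, the groups were VDD HF females (12.20 ± 2.41, SD, n = 3), CTRL LF females (10.32 ± 2.83), VDD LF females (7.36 ± 4.42), VDD LF males (7.10 ± 4.69), VDD HF males (6.77 ± 5.05), CTRL LF males (5.81 ± 1.96), CTRL HF males (5.30 ± 1.77) and CTRL HF females (3.96 ± 3.49). Every group in this order overlapped with its neighbours in the values of its mice.

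VDD HF females also had the highest group mean for Cidea, Cox8b, Cox7a1, Elovl3, Dio2 and Otop1. Kcnk3 and Ppargc1a had theirs in VDD LF males and Prdm16 in CTRL HF males. Neighbouring groups overlapped for every member, except that the VDD HF males (758, 835 and 839 normalized reads of Kcnk3) lay above the CTRL HF females (544, 647 and 733). Elovl3 was listed at 0 in VDD LF male 2310 and VDD HF male 2298, and did not exceed 10.4 normalized reads in any HF male. Otop1 ran from 1.66 in a CTRL HF female to 759 in a VDD HF female. Prdm16, which commits precursors to the brown fate, stayed between 52.7 and 216 in all 24 mice, and none of its 16 comparisons had an unadjusted p under 0.05.

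**Figure D1:**
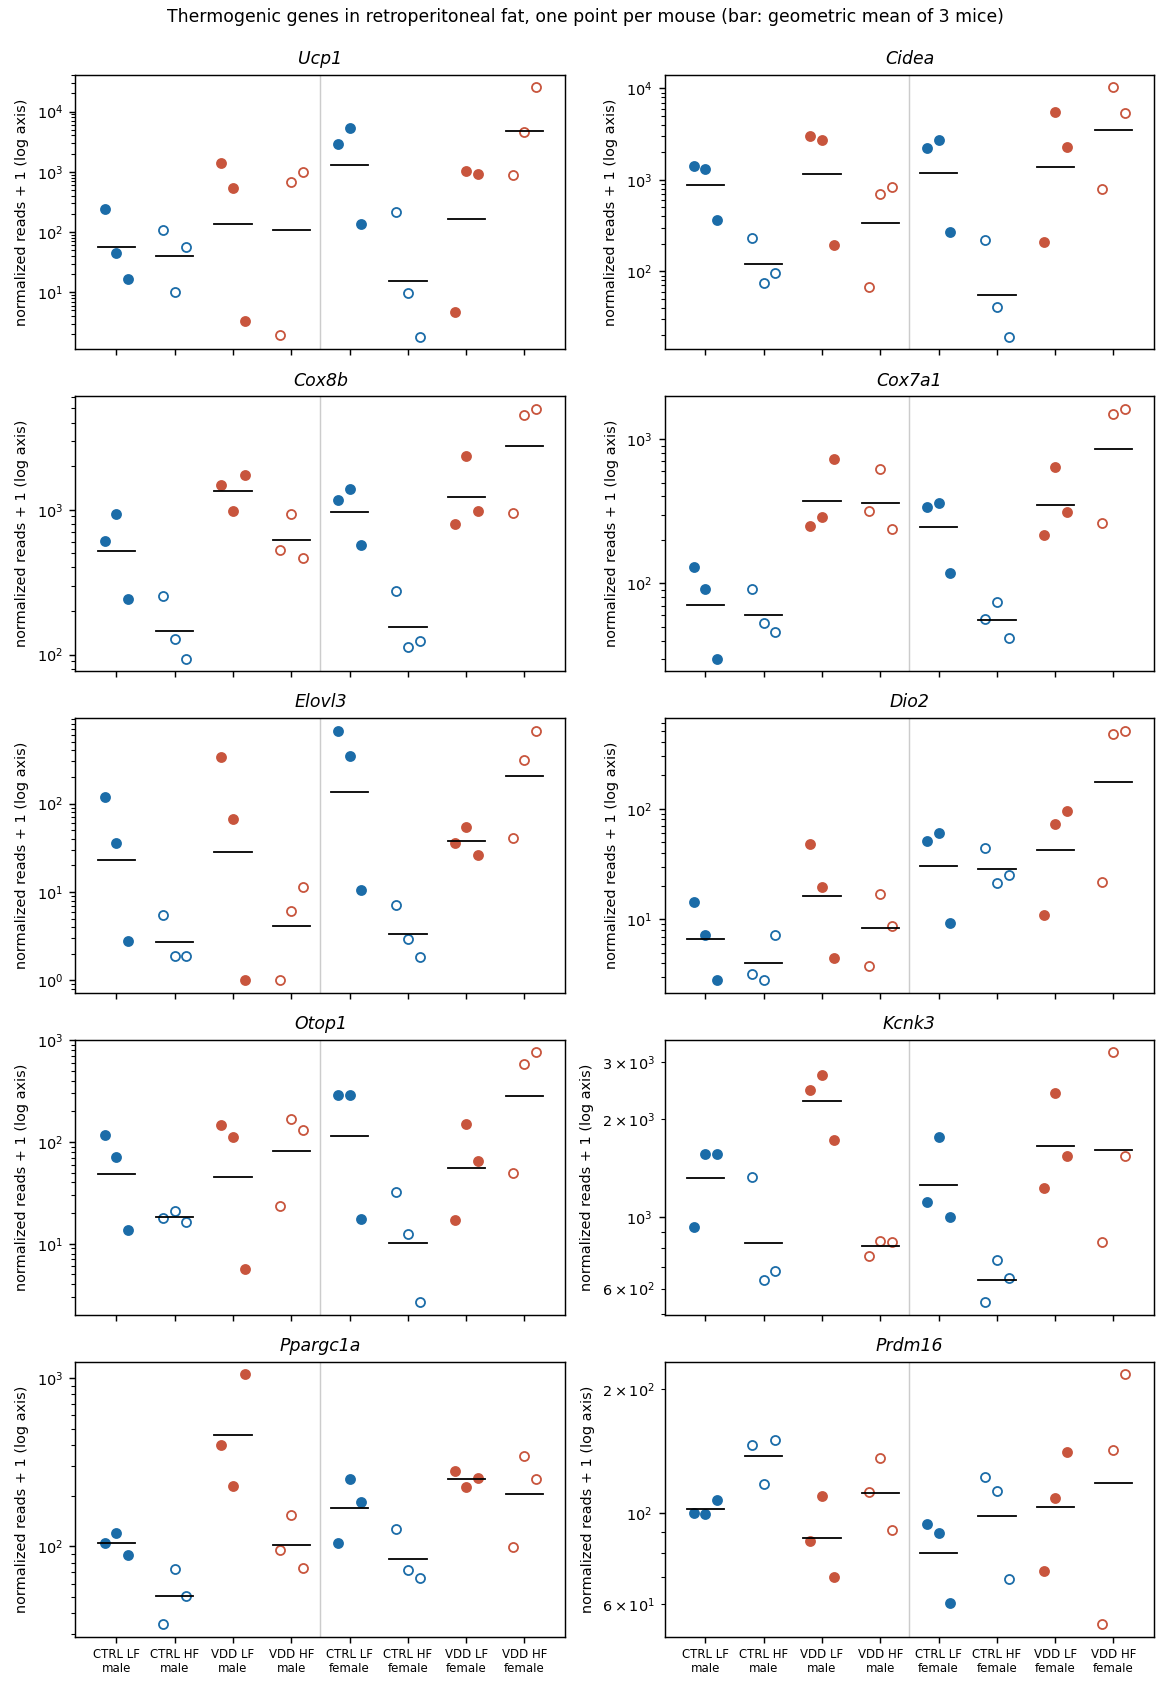
Normalized reads plus 1 (log axis) of the 10 members in each of the 24 mice, by group; blue marks offspring of CTRL mothers and red of VDD mothers, filled points the LF diet and open points the HF diet, and bars are geometric means of 3 mice. Ucp1 ran from 0.829 to 25479 normalized reads, and the 3 CTRL HF females sit below the 3 VDD HF females for 7 of the 10 genes.

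The effect of the maternal diet on high-fat-fed daughters was addressed by comparing CTRL HF and VDD HF females. All 10 members were higher in the VDD HF mice, with a median log2 difference of 4.06 against 0.00 over the 16480 genes tested. For Cox8b the CTRL HF mice had 112, 123 and 272 normalized reads and the VDD HF mice 943, 4516 and 4971, a log2 difference of 4.16 ± 0.67 (SE). Cox7a1 went from 40.6, 55.4 and 73.8 to 262, 1485 and 1619 (3.95 ± 0.69). Neither gene overlapped between the groups. Cidea had 18.2, 39.3 and 217 in CTRL HF mice against 788, 5451 and 10362 in VDD HF mice (6.02 ± 1.16). Ucp1 differed by 8.27 ± 1.86, Elovl3 by 5.96 ± 1.05, Otop1 by 4.80 ± 1.26, Kcnk3 by 1.35 ± 0.45 and Ppargc1a by 1.29 ± 0.49. These 8 members had an unadjusted p under 0.05, where 7.6% of all genes tested were higher at that level. Of these, 7 (Ucp1, Cidea, Cox8b, Cox7a1, Elovl3, Otop1 and Kcnk3) did not overlap between the groups, against 11.1% of all genes in that direction, although Elovl3 passed the filter through the VDD HF mice alone. Dio2 had 20.1, 24 and 43.1 against 20.6, 472 and 506, and Prdm16 67.9, 112 and 121 against 52.7, 141 and 216, so both overlapped.

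None of these differences was called. The call needed a Benjamini-Hochberg adjusted p under 0.01 with a fold change over 1.5 or under 0.66, and 0% of the genes passed it in this comparison (0 of 16480 by limma and 0 by limma-voom, with 2752 at an unadjusted p under 0.05). The adjusted p of the 8 members lay between 0.13 and 0.26 (0.131 for Cox8b, 0.152 for Ucp1). A fit over all 24 libraries called Cox8b (4.15, adjusted p = 0.0059), where it called 0.0272% of all genes. Cell type markers differed between the same groups. The summed level of 10 adipocyte markers, not particular to white cells, was 509886 to 537150 normalized reads in CTRL HF mice and 638306 to 1062307 in VDD HF mice. The sum of 6 mesothelial markers was 7374 to 14176 against 3065 to 6266. That of 5 stromal progenitor markers was 9021 to 11171 against 3565 to 8893, and that of the 11 adrenal markers 1141 to 33114 against 446 to 19176. Their part in the result was not tested. In the 24-library limma fit without the libraries high in adrenal markers, which leaves CTRL HF female 2291 alone in its group and takes its spread from the other groups, Cox8b differed by 4.19 ± 0.90, Cidea by 6.15 ± 2.09 and Cox7a1 by 3.06 ± 1.03. These 3 members, rather than 9, then had an unadjusted p under 0.05, against 6.23% of all genes in that direction, with adjusted p of 0.038, 0.21 and 0.21. Ucp1 was not among them (7.72 ± 3.90, adjusted p = 0.44).

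Within daughters of CTRL mothers, the HF diet was compared with the LF diet. Of the 10 members, 9 were lower in CTRL HF females, with a median log2 difference of -2.40 against 0.01 over the 16563 genes. This comparison and the preceding one share the same 3 CTRL HF mice. Ucp1 was lower by a log2 difference of -6.41 ± 1.91, Elovl3 by -5.38 ± 1.45, Cidea by -4.45 ± 1.09, Otop1 by -3.52 ± 1.27, Cox8b by -2.66 ± 0.42, Cox7a1 by -2.15 ± 0.45, Ppargc1a by -1.03 ± 0.37 and Kcnk3 by -0.995 ± 0.23, each with an unadjusted p under 0.05, as 14.4% of all genes were in that direction. Cidea had 272, 2253 and 2698 normalized reads in CTRL LF mice and 18.2, 39.3 and 217 in CTRL HF mice. Cidea, Cox8b, Cox7a1, Elovl3 and Kcnk3 did not overlap between the groups (18.2% of all genes did not in this direction), with Elovl3 reaching 10 reads in CTRL LF mice only. Ucp1 overlapped because CTRL LF female 2335, which had 70809 reads of muscle markers, had 135 Ucp1 reads and CTRL HF female 2290 had 215. Adjusted p was 0.024 for Cox8b, 0.037 for Cox7a1 and 0.045 for Kcnk3, and 0% of genes (0 by limma and by limma-voom, 4762 at an unadjusted p under 0.05) were called. The CTRL LF mice had sums of 672269 to 791009 for adipocyte, 4151 to 5178 for mesothelial and 5084 to 6557 for stromal progenitor markers. None of these overlapped with the CTRL HF mice. The sums of 8 macrophage markers were 5127 to 8234 against 12572 to 15174. Their part in the result was not tested. Without CTRL LF female 2125 the members with a p under 0.05 numbered 5 rather than 8, and in the 24-library fit without the libraries high in adrenal markers they numbered 2 (Cidea at -4.88 and Cox8b at -3.10).

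The remaining female comparisons showed less. Between VDD LF and VDD HF females, 8 members were higher and 2 lower on the HF diet, and Elovl3, with 25.5, 35.1 and 54.0 normalized reads on LF and 39.8, 314 and 662 on HF, had the only p under 0.05 (2.45 ± 0.95, adjusted p = 0.84), where 2.51% of all genes were higher at that level. Ucp1 differed by 4.84 ± 2.19 (unadjusted p = 0.062). That count of 1 was 0 without VDD LF female 2303, VDD HF female 2083 or VDD HF female 2121, 3 without VDD LF female 2311 and 6 without VDD HF female 2081. Between CTRL LF and VDD LF females no member had a p under 0.05, where 12% of all genes did in either direction, and Ucp1 differed by -2.96 ± 2.24. There 1 member was higher at that level without CTRL LF female 2125 or without VDD LF female 2303, and 2 were lower without CTRL LF female 2335. Cox8b and Cox7a1 overlapped between these groups, and by limma-voom they differed by 0.35 and 0.48. The genes called were 0% in both comparisons (0 by limma and by limma-voom, with 804 and 1933 genes at an unadjusted p under 0.05).

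**Figure D2:**
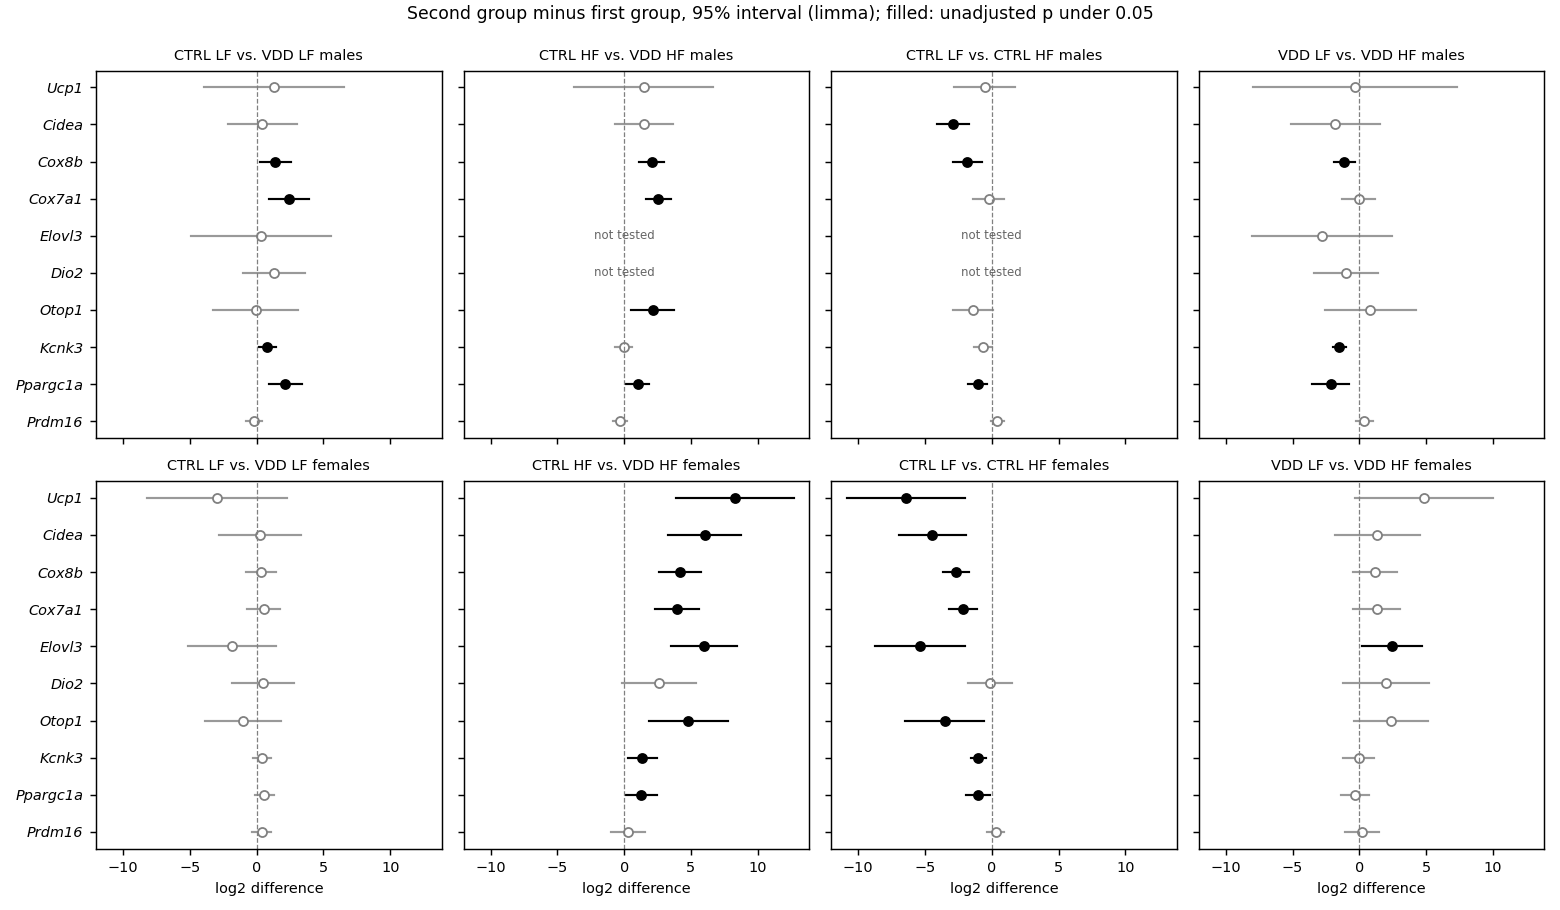
Log2 difference (second group minus first) with its 95% interval for the 10 members in the 8 pairwise comparisons; filled points have an unadjusted p under 0.05, and "not tested" marks a gene below the filter in that table. In females the 8 filled points of CTRL HF vs. VDD HF lie to the right of 0 and the 8 of CTRL LF vs. CTRL HF to the left; none of the points was called.

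The difference of these differences was tested in a single fit of the 24 libraries. In females, the HF minus LF difference was larger in offspring of VDD than of CTRL mothers for 9 of 10 members, with a median of 3.62 on the log2 scale against -0.02 over the 18399 genes. In CTRL HF females Elovl3 did not exceed 6.16 normalized reads and Ucp1 went down to 0.829, so the sizes for both rest partly on values near the floor. Ucp1 had the largest difference of differences, 11.20 ± 3.70, followed by Elovl3 (7.76 ± 2.53), Otop1 (5.82 ± 1.96), Cidea (5.77 ± 1.94), Cox8b (3.82 ± 0.87) and Cox7a1 (3.41 ± 0.95). These 6 had an unadjusted p under 0.05, against 3.21% of all genes in that direction, and their adjusted p lay between 0.48 and 0.65. The count was 3 (Cox8b 3.86, Cidea 5.92 and Ucp1 10.68) without the libraries high in adrenal markers. In males no member had a p under 0.05 (4.1% of all genes did in either direction), although 1 was lower without VDD LF male 2302, and Ucp1 differed by 0.19 ± 3.70, too imprecise to tell a large effect of either sign from none. The genes called were 0% in both sexes (0 by limma and by limma-voom, with 1171 genes at an unadjusted p under 0.05 in females and 755 in males).

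Averaged over the offspring diets, all 10 members were higher in daughters of VDD mothers, with a median of 1.95 against -0.01 over all genes. Cox8b was higher by 2.24 ± 0.43 (adjusted p = 0.027) and Cox7a1 by 2.23 ± 0.48 (adjusted p = 0.031). Cidea (3.12 ± 0.97), Kcnk3 (0.87 ± 0.27) and Ppargc1a (0.93 ± 0.35) also had an unadjusted p under 0.05, against 10.5% of all genes in that direction, and Ucp1 differed by 2.64 ± 1.85 (unadjusted p = 0.17). The count of 5 was 8 without VDD LF female 2303 or without VDD HF female 2081, and in the latter case Cox8b (2.63, adjusted p = 0.0049) and Cox7a1 (2.66, adjusted p = 0.0067) were called, as were 0.169% of all genes. Without the libraries high in adrenal markers it was 3. The genes called with all libraries were 0% (0 by limma and by limma-voom, 3927 at an unadjusted p under 0.05).

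The maternal diet was compared in sons within each offspring diet. On the LF diet Cox8b had 242, 609 and 927 normalized reads in CTRL mice and 973, 1478 and 1725 in VDD mice (1.40 ± 0.49). Cox7a1 had 29.1, 89.8 and 128 against 249, 287 and 732 (2.42 ± 0.63), Ppargc1a 88.2, 104 and 119.7 against 226, 399.7 and 1048 (2.14 ± 0.52), and Kcnk3 931, 1559 and 1565 against 1732, 2465 and 2752 (0.80 ± 0.27). These 4 did not overlap between the groups (6.83% of all genes did not in this direction) and had an unadjusted p under 0.05 (3.12%), with adjusted p from 0.60 to 0.68. Ucp1 differed by 1.31 ± 2.21. Leaving out VDD LF male 2310 raised the 4 members with a p under 0.05 to 7, and leaving out 2078 of the same group lowered them to 2. The Ppargc1a value of 1048 was from 2310, which had the highest sum of muscle markers in its group. Without 2310 Ppargc1a differed by 1.546.

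On the HF diet Cox8b had 92.9, 128 and 254 in CTRL and 467, 530.3 and 939 in VDD sons (2.07 ± 0.41), and Cox7a1 had 44.7, 52.5 and 90.7 against 236, 314 and 624 (2.55 ± 0.41). Otop1 was at 15.2, 16.8 and 19.9 against 22.4, 132 and 168 (2.14 ± 0.69). These 3 did not overlap (5.04% of all genes did not in this direction), and with Ppargc1a (1.00 ± 0.37) they made 4 of 8 tested members with an unadjusted p under 0.05 (3.18%). Elovl3 and Dio2 were below the filter in that table, with at most 10.4 and 16.1 normalized reads. Ucp1 differed by 1.44 ± 2.25. The count was 2 without VDD HF male 2307. The genes called were 0% in both comparisons of sons by maternal diet (0 by limma and by limma-voom, with 1048 genes on LF and 850 on HF at an unadjusted p under 0.05), but 142 genes were called on HF without VDD HF male 2308.

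Averaged over diets, Cox7a1 (2.49 ± 0.48, adjusted p = 0.14), Cox8b (1.74 ± 0.43, adjusted p = 0.25) and Ppargc1a (1.58 ± 0.35, adjusted p = 0.19) were higher in VDD sons with an unadjusted p under 0.05, against 6.44% of all genes in that direction. Over the 10 members the median was 1.10, against 0.00 over all genes. Ucp1 differed by 1.38 ± 1.85. No gene was called (0%, 0 by limma and by limma-voom, 1996 at an unadjusted p under 0.05). Skeletal muscle, which also uses the Cox7a1 and Cox8b subunits and expresses Ppargc1a, was unequally present, with marker sums over 50000 in VDD LF males 2302 and 2310 and VDD HF males 2298 and 2307 but in CTRL LF male 2287 alone among CTRL sons. With a muscle score, the mean log2 level of the 16 markers, as a covariate, Cox7a1 differed by 2.38, Cox8b by 1.81, Ppargc1a by 1.35, Cidea by 1.93 and Ucp1 by 3.47, and these 5 had an unadjusted p under 0.05, against 3.03% of all genes in that direction. Without the 8 libraries over 50000, VDD LF male 2078 and VDD HF male 2308 were alone in their groups and were assumed to vary like the mice of the other groups. They had the highest Ucp1 levels of their groups (1416 and 982), and those left out included the lowest (2.34 and 0.935). With that removal 8 members had a p under 0.05, against 1.61% of all genes in that direction, with Ucp1 at 5.18 (unadjusted p = 0.0065), Cox7a1 at 2.11, Cox8b at 1.66 and Ppargc1a at 1.25. The removal was chosen after seeing the data, and under both settings the adjusted p was at least 0.50 for every member.

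Within groups, the members went with the muscle markers in unequal measure. In a 24-library fit with the 8 groups and the muscle score, the slope of Ucp1 was -0.47 ± 0.15 log2 per unit of score (unadjusted p = 0.0044, adjusted p = 0.13), that of Elovl3 -0.25 ± 0.11, that of Cidea -0.22 ± 0.08 and that of Otop1 -0.21 ± 0.08. The slopes of Cox8b (-0.02 ± 0.04), Cox7a1 (0.02 ± 0.05) and Ppargc1a (0.05 ± 0.03) had unadjusted p of 0.13 or more. A term for the 6 libraries with renal in the name gave Ucp1 a difference of 2.73 ± 1.52 (unadjusted p = 0.089), and no gene had an adjusted p under 0.05 for it.

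**Figure D3:**
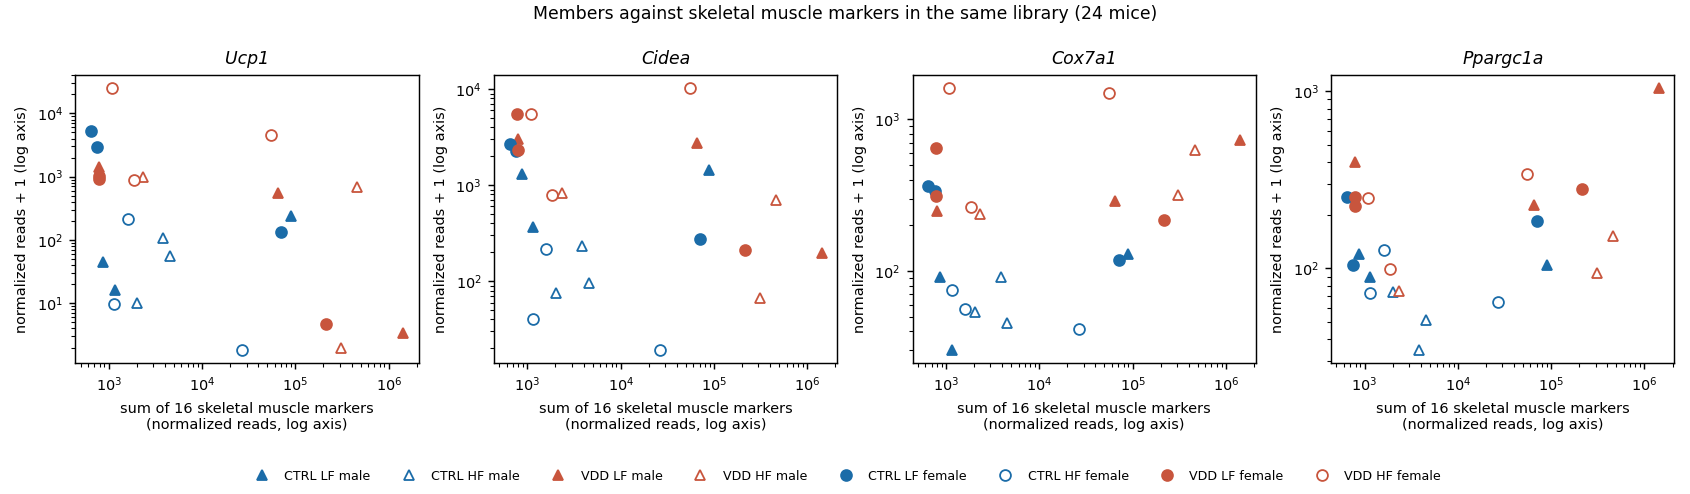
Normalized reads plus 1 of Ucp1, Cidea, Cox7a1 and Ppargc1a against the summed normalized reads of 16 skeletal muscle markers in the same library (both axes log), 1 point per mouse; triangles are males, circles females, blue CTRL, red VDD, filled LF and open HF. Ucp1 was at 3.76 or less in VDD LF male 2310, VDD HF male 2298 and VDD LF female 2303, which had 1423684, 308878 and 214577 marker reads. It was at 683 in VDD HF male 2307, which had 461168. The lowest Ucp1 level, 0.829, was in CTRL HF female 2292, from a group with 1152 to 26634 marker reads. That library was high in adrenal markers. So were CTRL HF female 2290 and VDD HF female 2121, with 215 and 25479 Ucp1 reads.

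The HF diet in sons gave 2 of the 3 calls among the members. Averaged over maternal diets, Ppargc1a fell by 1.598 on the log2 scale (SE 0.35, adjusted p = 0.0033) and Kcnk3 fell by 1.08 (SE 0.27, adjusted p = 0.0083), and both were called, where 8.46% of all genes were called. Ppargc1a had 88.2 to 1048 normalized reads in the 6 LF sons (median 173) and 33.6 to 152 in the 6 HF sons (median 73.0). The value of 1048 was from VDD LF male 2310, which had 1423684 muscle marker reads. Without that mouse Ppargc1a differed by -1.298, and the part of muscle in its value was not tested. Kcnk3 had 931 to 2752 on LF (median 1648) and 637 to 1325 on HF (median 796). Both ranges overlapped. Cox8b was lower by -1.48 ± 0.43 (adjusted p = 0.019), Cidea by -2.33 ± 0.97 and Elovl3 by -2.94 ± 1.27, so that 5 members were lower with an unadjusted p under 0.05, against 17.6% of all genes, and the median of the 10 was -0.96 against 0.00. Ucp1 differed by -0.42 ± 1.85. The calls were narrow. Ppargc1a missed the threshold without CTRL LF male 2293 or VDD HF male 2308 (adjusted p = 0.011 in both), with limma-voom (0.015), without the libraries with renal in the name (0.014) and without those high in muscle markers (0.022). Kcnk3 missed it without CTRL LF male 2293 or 2296, VDD LF male 2078 or 2302, CTRL HF male 2128 or 2131, any VDD HF male, CTRL LF female 2124 or any CTRL HF female (adjusted p up to 0.025), with no filter (0.014), and without the 6 libraries with renal in the name (0.088), those high in muscle markers (0.024) or those high in adrenal markers (0.015). The count of 5 was 3 without CTRL LF male 2287, CTRL LF male 2293, VDD LF male 2078, VDD LF male 2302, CTRL HF male 2128 or VDD HF male 2298.

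By maternal group, CTRL HF sons had lower Cidea than CTRL LF sons, at 74.3, 95.6 and 231 against 362, 1301 and 1421 normalized reads (-2.89 ± 0.54, adjusted p = 0.040), and lower Ppargc1a, at 33.6, 50.03 and 72.5 against 88.2, 104 and 119.7 (-1.05 ± 0.31). Neither overlapped between the groups (11.7% of all genes did not in this direction). Cox8b was lower by -1.84 ± 0.49, so that 3 of 8 tested members had an unadjusted p under 0.05, against 8.73% of all genes in that direction, and 5 had it without CTRL LF male 2296. Prdm16 was the exception in sign, at 98.5, 99.0 and 106 on LF and 117, 146 and 149 on HF. Elovl3 and Dio2 were below the filter in that table, with Elovl3 at 1.82, 34.9 and 119 on LF and 0.893 to 4.48 on HF. Ucp1 differed by -0.52 ± 1.01, and 0.0578% of genes were called. Stromal progenitor markers summed to 6894 to 8973 normalized reads in the CTRL LF sons and 10361 to 14265 in the CTRL HF sons, and 5 endothelial markers to 8366 to 13976 and 14348 to 14824, with no overlap in either. Their part in the result was not tested.

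Among sons of VDD mothers, Kcnk3 had 1732, 2465 and 2752 normalized reads on LF and 758, 835 and 839 on HF (-1.49 ± 0.20, adjusted p = 0.021). Ppargc1a (-2.16 ± 0.58) and Cox8b (-1.14 ± 0.33) were also lower, and none of the 3 overlapped between the groups (16.5% of all genes did not in this direction). They were the 3 members with an unadjusted p under 0.05, against 12.2% of all genes. Without VDD LF male 2310 there were 6, against 17.2% of all genes lower at that level, and Kcnk3 was then called (-1.69, adjusted p = 0.0054), as were 264 genes (1.7%). With all libraries Ucp1 differed by -0.33 ± 3.16, and 0.0752% of genes were called. In daughters the same average over maternal diets gave no member a p under 0.05, where 20.4% of all genes had it and 0.272% were called, and Ucp1 differed by -0.75 ± 1.85. Without the libraries high in muscle markers, 7 members were lower in HF daughters at that level, against 10.3% of all genes, with Cidea at -3.13 and Kcnk3 at -0.95. That removal was chosen after seeing the data. It took out CTRL LF female 2335 and VDD LF female 2303, which had the lowest Ucp1 (135 and 3.76) and Cidea (272 and 208) levels of their groups. It also took out the VDD HF female with 55262 muscle marker reads. The count of 7 therefore cannot be separated from the choice of mice. Leaving out VDD LF female 2303 or VDD HF female 2083 gave 2 lower members, and leaving out VDD HF female 2081 gave 2 higher ones. A single lower member was found without CTRL LF female 2124, CTRL HF female 2290 or VDD LF male 2310.

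**Figure D4:**
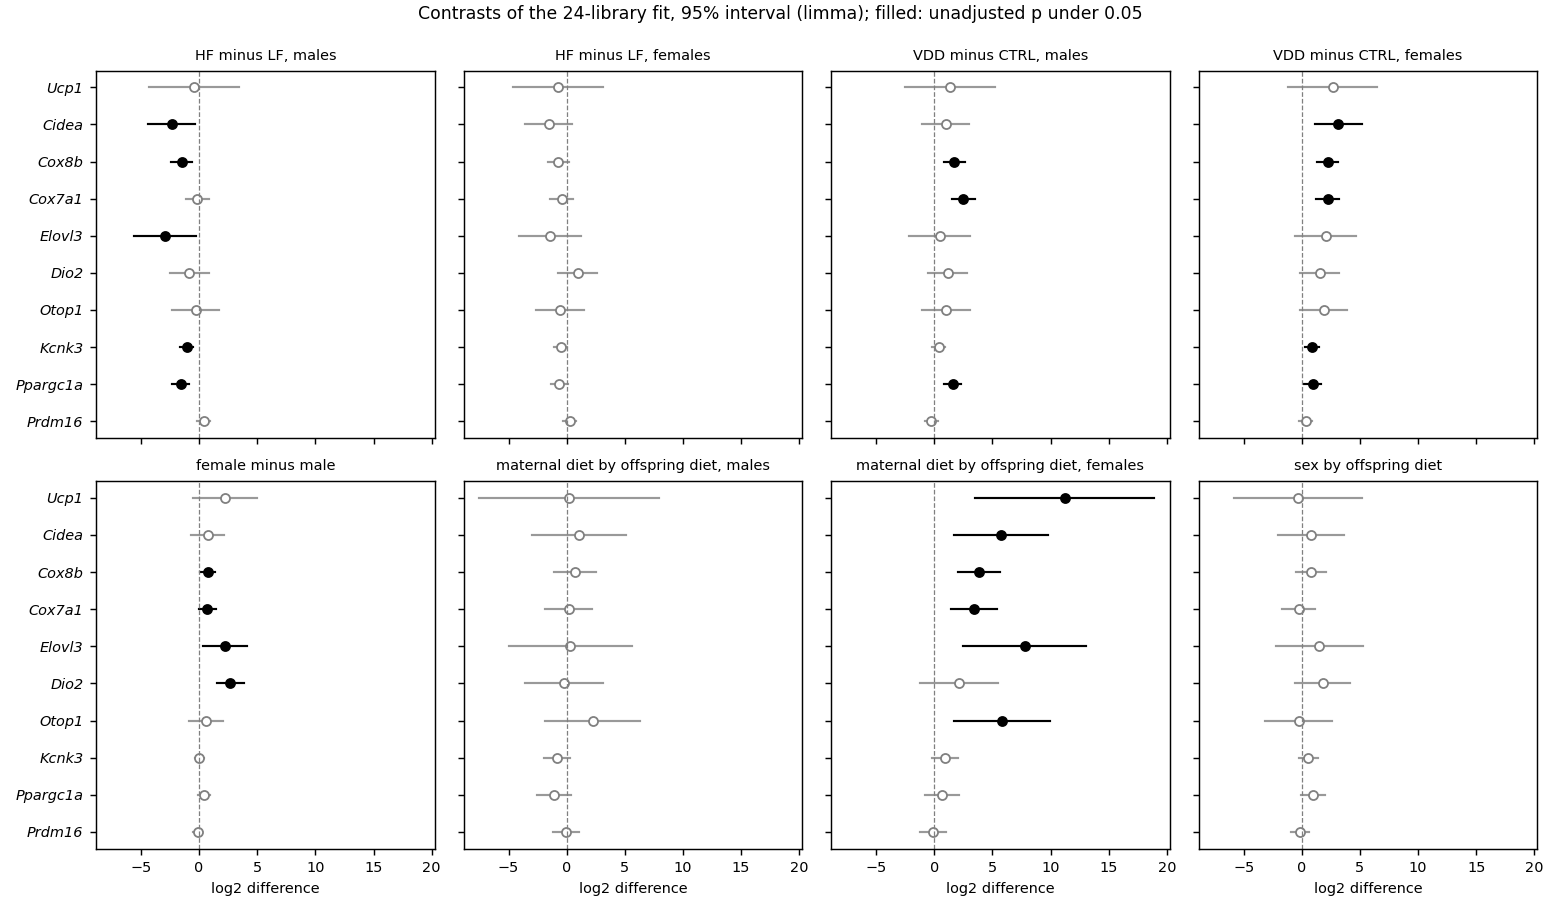
Log2 difference with its 95% interval for the 10 members in the 8 contrasts of the 24-library fit; filled points have an unadjusted p under 0.05. Ppargc1a and Kcnk3 in HF minus LF of males and Dio2 in female minus male are the 3 called points.

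Dio2 was the only member called between the sexes. It had 8.34 to 506 normalized reads in the 12 females (median 46.4) and 1.81 to 47.4 in the 12 males (median 6.25), a female minus male difference of 2.696 ± 0.57 (adjusted p = 0.0025), and it was called, where 7.27% of all genes were. The ranges overlapped, with VDD LF male 2078 at 47.4 above 6 of the females. Counts in males were low, so the size of the difference rests partly on values near the floor. Dio2 did not reach the adjusted threshold with limma-voom (adjusted p = 0.034), without the libraries with renal in the name (0.031), without those high in muscle markers (0.012) or without those high in adrenal markers (0.034). Elovl3 (2.22 ± 0.90), Cox8b (0.76 ± 0.31) and Cox7a1 (0.71 ± 0.34) were higher in females with an unadjusted p under 0.05, against 17.8% of all genes in that direction. The median of the members was 0.72, against 0.01 over all genes, and Ucp1 differed by 2.22 ± 1.31 (unadjusted p = 0.11). The count of 4 was 2 without CTRL LF male 2296 and 1, Dio2 itself, without the libraries high in adrenal markers. No member had a p under 0.05 for the difference of the diet effect between the sexes (8.92% of all genes did, and 0.0272% were called), and there Ucp1 differed by -0.33 ± 2.62. A single member had such a p without VDD LF male 2302, CTRL HF male 2128, VDD HF male 2307 or CTRL LF female 2125, and 4 did without VDD HF female 2081.

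Across the 24 libraries, the members fell into correlated sets. Ucp1 had a Pearson r on the log2 scale of 0.90 with Otop1, 0.86 with Cidea, 0.82 with Elovl3 and 0.735 with Dio2, and of 0.24 with Ppargc1a. After the group means were taken out, Ucp1 kept an r of 0.94 with Cidea and 0.88 with Otop1, while its r with Ppargc1a was -0.12. Cox8b and Cox7a1 had the highest r of any pair, 0.91, and 0.86 within groups. Prdm16 had an r of -0.16 to 0.40 with the other members over all libraries and of 0.23 to 0.77 within groups. These are descriptions of 24 libraries that share tissue composition, with no test.

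**Figure D5:**
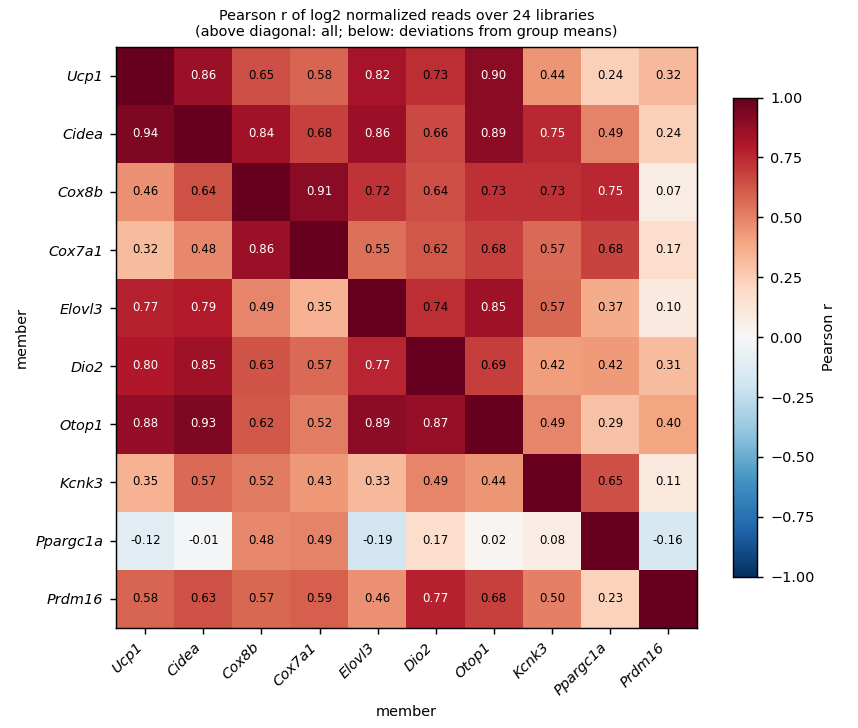
Pearson r of log2 normalized reads between members over 24 libraries, above the diagonal for all values and below it for deviations from the group means. Cox8b with Cox7a1 (0.91) and Ucp1 with Otop1 (0.90) are the highest pairs above the diagonal, and Ucp1 with Cidea (0.94) below it.

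Among all 18398 other genes, the 3 most like Ucp1 over the 24 libraries were the members Otop1, Cidea and Elovl3. The 5 non-members with the highest r were Grk3 (0.81), a kinase that desensitises G protein-coupled receptors, Gm10032 (0.81), Gm47593 (0.81), Acot11 (0.80), a long-chain acyl-CoA thioesterase of brown fat, and the unannotated transcript XLOC_049214 (0.80).

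The wider thermogenic pathway was described by 7 lists. Fuel use and mitochondria had 13 tested genes, including Cpt1b, which admits fatty acids to the mitochondrion, Plin5 of the lipid droplet and the acyl-CoA thioesterase Acot2. All 13 were higher in CTRL HF vs. VDD HF females, 12 of them with an unadjusted p under 0.05 and with a median of 1.83. In the 24-library fit all 13 were higher in daughters of VDD mothers (12 with such a p, median 1.11), with Sirt3, a mitochondrial deacetylase, at 0.66 ± 0.14 (adjusted p = 0.031) and Cox4i1, the ubiquitous cytochrome c oxidase subunit, at 0.79 ± 0.17 (adjusted p = 0.032). In the female interaction all 13 were again positive (9 with such a p, median 1.42), led by Slc25a20, the carnitine carrier, at 1.71 ± 0.42 and Cpt1b at 3.83 ± 1.05. In sons 12 of 13 were higher with maternal VDD (4 with such a p, median 0.41), among them Fabp3 at 4.57 ± 0.82 and Cpt1b at 1.62 ± 0.52, both also abundant in muscle. In CTRL HF against CTRL LF females all 12 tested genes of the list were lower, 9 with such a p (median -1.38). Over all genes at such a p, 7.6% were higher in CTRL HF vs. VDD HF females. The share lower in CTRL LF vs. CTRL HF females was 14.4%. The shares higher were 10.5% in daughters by maternal diet, 3.21% in the female interaction and 6.44% in sons by maternal diet. None of the genes of this list was called in these comparisons.

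The 12 transcription factors and coactivators behaved less evenly. In daughters, 10 were higher with maternal VDD (7 with an unadjusted p under 0.05, median 0.58), with Pparg, the master regulator of adipocytes, at 0.63 ± 0.13 (adjusted p = 0.027) and Cebpb at 1.09 ± 0.23 (adjusted p = 0.031), while Zfp516 was among the 2 that were lower. In sons on the HF diet, 11 of 12 were lower (8 with such a p, median -0.40) and 3 were called, where 17.6% of all genes were lower at that p and 8.46% were called. Irf4, a fasting-induced partner of PGC-1alpha in brown fat, fell by 3.26 (SE 0.40, adjusted p = 3.4e-05), Ppargc1b by 1.80 (SE 0.39, adjusted p = 0.0032) and Pparg by 0.71 (SE 0.13, adjusted p = 0.00069). Irf4 was also called in HF daughters, where it fell by 2.35 (SE 0.40, adjusted p = 0.0071). All 12 had a positive interaction in daughters (5 with an unadjusted p under 0.05, median 0.68), and in sons 10 were higher with maternal VDD (4 with such a p, median 0.29). The shares of all genes higher at such a p were 10.5% in daughters by maternal diet, 3.21% in the female interaction and 6.44% in sons by maternal diet. In HF daughters 0.272% of all genes were called.

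Adrenergic input was described by 8 genes. In HF sons Pde3b, the phosphodiesterase through which insulin restrains lipolysis, fell by 1.12 (SE 0.22) and was called. All 8 were higher in daughters of VDD mothers (3 with an unadjusted p under 0.05, median 0.28). Compared with males, females had lower Adrb1 (-0.92 ± 0.23), the beta-1 receptor, which was called. In the list of 8 genes taken as inhibitors of the brown programme, HF sons had higher Rbl1 (0.62 ± 0.16). They had lower Pde4d (-1.42 ± 0.30) and Rgs2 (-2.33 ± 0.38), and females had higher Rgs2 than males (1.66 ± 0.27). All of these were called. Whether each listed gene inhibits the programme was not tested, and Rgs2 is not read as an inhibitor here. In daughters by maternal diet 4 of these 8 listed genes were higher and 4 lower (median 0.03). Acot2 was the fuel gene called in HF sons (-1.14 ± 0.20), and Pank1 (1.48 ± 0.36), Letmd1 (0.77 ± 0.16) and Sirt3 (0.61 ± 0.10) were called as higher in females. Over all genes, 8.46% were called in HF sons and 7.27% between the sexes. In daughters of VDD mothers 10.5% of all genes were higher at an unadjusted p under 0.05.

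In the last 3 lists every call was between the sexes. Of the 8 genes of other heat-producing cycles, Ckb, the creatine kinase of the futile creatine cycle, was higher in females (0.85 ± 0.15, called). By maternal diet in daughters, 5 of these 8 were higher (2 with an unadjusted p under 0.05, median 0.28). Among 6 tested secreted factors, 5 were lower in females, and females had lower Fgf21 (-1.32 ± 0.33) and Gdf15 (-1.82 ± 0.43) and higher Slit2 (2.22 ± 0.22), all called. Of the 10 tested lineage labels, Hoxc9, a label of white and beige rather than classical brown fat, was lower in females (-0.81 ± 0.15, called), and P2rx5, a purine receptor of brown and beige cells, had a difference of 1.327 ± 0.25 (adjusted p = 0.027) in daughters by maternal diet, where 8 of the 10 were higher (3 with an unadjusted p under 0.05, median 0.47). Over all genes, 7.27% were called between the sexes, and 10.5% were higher in daughters by maternal diet at an unadjusted p under 0.05. In the pairwise comparisons no gene of the 7 lists was called.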

How the data were processed

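Poly(A) RNA of 24 retroperitoneal fat samples was sequenced as stranded paired-end libraries. The authors aligned the reads with STAR 2.7.0d, keeping unique alignments (build mm10 per the submitters' processing notes), extended the annotation with Cufflinks 2.2.1, counted with featureCounts 1.6.1 and used SAMtools 1.9 and DESeq2. The 8 deposited tables hold log2 values made by the authors from normalized reads plus 1 for 6 libraries each. The tables' other columns (base mean, log2 fold change, standard error, statistic, p and adjusted p) hold the authors' comparisons and were not used. Of 56899 entries, 4 with duplicated names were left out. Raw reads were recovered from the steps between values: 100% came out whole within 0.02 reads. Library columns name the group and the mouse but no replicate number of the labels.

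Each table was tested with limma 3.58.1 (trended empirical Bayes, R 4.3.3) over the entries for which 3 or more libraries reached 10 normalized reads. The 8 contrasts over all mice came from a single limma fit of 24 libraries, with recovered reads rescaled over all libraries by medians of ratios, and levels are on that scale. A count test was not run, limma-voom on the recovered reads being the alternative. Calls needed a fold change over 1.5 or under 0.66 together with p below 0.01 after Benjamini-Hochberg adjustment. RPKM and motifs were computed here from GENCODE M21 exon lengths and RefSeq promoters. The fits were tested on simulated data. Named genes are the members, genes of the pathway lists that were called and, in the contrasts over all mice, up to 2 genes per list with the smallest p. Not every gene that this rule names is reported here. The members and lists were chosen with earlier results of these data known. Alternatives were limma-voom, a pseudocount of 10, no filter, a filter of 50 reads, upper quartile scaling, a skeletal muscle score, terms for or removal of libraries with renal in the name, each mouse left out and, chosen after seeing the data, removal of libraries with over 50000 reads of muscle or over 5000 reads of adrenal markers.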

Additional observations from a re-analysis of the deposited data

How the results depend on the processing

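For the members with an unadjusted p under 0.05 in a comparison, together with Ucp1 in all 16, there were 67 results and 1564 alternative values. Of these, 1493 kept their direction and side of the threshold, 26 lost a call, 8 gained one and 37 changed sign, all 37 for Ucp1. Ucp1 changed sign with the muscle score as covariate in VDD LF vs. VDD HF males (0.58). In the 24-library fit without muscle-rich libraries it was 0.54 in CTRL LF vs. CTRL HF males, 0.0052 in HF minus LF of males and -1.07 in the male interaction. For the libraries with renal in the name, a term gave 0.16 and removal 0.16 in HF minus LF of females, a term gave 0.58 and removal 0.35 in sex by diet, and removal gave -0.94 in the male interaction. With single mice left out, Ucp1 ran from -0.37 to 3.97 in CTRL LF vs. VDD LF males, -0.15 to 4.37 in CTRL HF vs. VDD HF males, -1.41 to 0.53 in CTRL LF vs. CTRL HF males, -3.02 to 2.58 in VDD LF vs. VDD HF males, -2.03 to 0.018 in HF minus LF of females, -1.76 to 1.03 of males, -2.50 to 3.09 in the male interaction and -1.79 to 1.01 in sex by diet. The cause was not tested. In CTRL HF vs. VDD HF females Ucp1 ran from 6.71 to 10.16 and Cox8b from 3.74 to 4.94. Kcnk3 and Dio2 had adjusted p of 0.014 (no filter) and 0.034 (limma-voom) where their calls in HF minus LF of males and in female minus male were lost, and Ppargc1a was called in VDD LF vs. VDD HF males in the 24-library fit (0.0078). The other 89 member results, with 2270 alternatives, changed sign 115 times.

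Counts of called genes moved as follows. In the 24-library fit they were 2 in CTRL LF vs. VDD LF males, 863 in VDD LF vs. VDD HF males, 5 in CTRL HF vs. VDD HF females and 23 between CTRL LF and CTRL HF females. The same fit gave, without muscle-rich libraries, 61 in CTRL LF vs. VDD LF males, 0 in CTRL LF vs. CTRL HF males, 460 in VDD LF vs. VDD HF males, 3 in CTRL LF vs. CTRL HF females and 1 in VDD LF vs. VDD HF females, and without adrenal-rich libraries 854 in VDD LF vs. VDD HF males, 15 in CTRL HF vs. VDD HF females and 34 in CTRL LF vs. CTRL HF females. A pseudocount of 10 gave 15 in CTRL LF vs. CTRL HF males, 47 in VDD LF vs. VDD HF males and 1 in the male interaction. No filter gave 39 and 37 in those male pairs, 13 between CTRL LF and CTRL HF females, 16 in HF minus LF of females, 3 in the female interaction and 3 in sex by diet. A filter of 50 reads gave 22 in CTRL LF vs. CTRL HF males, 13 in CTRL LF vs. CTRL HF females, 855 in female minus male and 2 in sex by diet. Limma-voom gave 0 in VDD LF vs. VDD HF males and 0 in sex by diet, upper quartile scaling 3 in sex by diet, and the muscle score 1 in VDD LF vs. VDD HF males. A term for renal libraries gave 19 in HF minus LF of females and 1 in sex by diet, and their removal 265 in HF minus LF of males, 0 of females, 363 in female minus male and 0 in sex by diet. Removal of muscle-rich libraries gave 825 in HF minus LF of males, 680 in female minus male, 16 in the male interaction and 0 in sex by diet, and of adrenal-rich libraries 15 in HF minus LF of females, 604 in female minus male and 0 in sex by diet. With single mice left out the counts ran from 0 to 142 in CTRL HF vs. VDD HF males, 0 to 10 in CTRL LF vs. CTRL HF males, 0 to 264 in VDD LF vs. VDD HF males (264 without VDD LF male 2310), 0 to 1 between CTRL LF and CTRL HF females, 959 to 2022 in HF minus LF of males, 0 to 276 of females (276 without VDD HF female 2083), 0 to 156 in VDD minus CTRL of females (156 without VDD LF female 2312), 1030 to 1629 in female minus male and 1 to 7 in sex by diet.

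No paired analysis was possible because the library columns carry no replicate number of the labels. The groups hold different mice, and the sources used here do not say that these numbers link mice across groups. Litter or mother could link mice, but neither is given. Groups of 3 mice limit the precision of every value, and low counts limit Elovl3 and Dio2 in males. Low counts also limit Ucp1, Elovl3 and Otop1 in CTRL HF females, where they went down to 0.829, 0.829 and 1.66 normalized reads.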
